A study of Mus musculus with 34 samples.

Results

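The telomeric ends of mouse chromosomes other than 12, which carries the immunoglobulin heavy chain locus Igh, and 15, which carries its frequent translocation partner Myc, were examined for contact with Igh. The deposited tables divide the mm9 mouse genome into 12836 windows of 200 kb. Members were the 849 windows that start within 10 Mb of the last window's end on the 17 autosomes other than 12 and 15, chosen by position alone. They were compared with 9214 interior windows of the same chromosomes, which lie outside the last 10 Mb and start at 13 Mb or beyond, and in places with the 848 windows of the first 13 Mb. All values come from circular chromosome conformation capture (4C) with the restriction enzyme HindIII and a bait in Igh. In 4C, DNA that lies close together in the nucleus is cross-linked, cut and ligated, and the fragments joined to the bait are sequenced.

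Both tumors are mouse plasmacytomas, tumors of antibody-secreting plasma cells, on the Balb/c strain. TEPC1165 is given no genotype in the labels. PCT4961 carries the genotype AID-/- BclXL. AID is the deaminase that starts class switching and somatic hypermutation of antibody genes, and BclXL is an anti-apoptotic protein. Each tumor is a single line with 2 libraries numbered 1 and 2, and the labels do not say whether the libraries came from separate cultures. The other 30 of the 34 samples of the series were not used here.

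Mouse autosomes have their centromere at one tip, so that coordinates run from the centromere to the far telomere. Igh lies near that far end of chromosome 12: the window with most reads, 12:114400001-114600000, was centred 6.76 Mb from the end of the chromosome. Chromosomes occupy separate territories in the nucleus, and contacts between chromosomes are rarer than contacts within one. Telomeric ends of different chromosomes can share a nuclear neighbourhood, and the comparison asks whether the Igh bait met the corresponding ends of other chromosomes more often than their interiors.

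The libraries held 1668589 to 2178689 reads. Of these, 40.1% and 32.1% lay on the 17 autosomes in TEPC1165 replicates 1 and 2, and 23.7% and 22.9% in PCT4961. Libraries with the same number resembled each other across tumors more than the replicates of a tumor did. Of the end windows with reads in TEPC1165 replicate 1, 90.3% also had reads in PCT4961 replicate 1 and 51.8% in TEPC1165 replicate 2. Every end window with at least 500 reads in a library (33 to 61 windows) was also hit in the same-numbered library, whereas 50.9% to 72.7% had reads in the other library of its tumor. In the end windows with at least 500 TEPC1165 reads, the median PCT4961 library of the same number held 4.60% and 5.38% as many reads, and in the reverse direction the medians were 1.72% and 1.52%. The 4 libraries are therefore not 4 independent measurements, and results are also given with each window kept only in the same-numbered library that had the larger share of reads.

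Fragments near the chromosome ends were detected more often than interior fragments in all 4 libraries. A fragment was counted as detected when it had at least 1 read. In TEPC1165 replicate 1, 563 of 50891 end fragments were detected, or 1.11% (95% Wilson interval 1.02% to 1.20%), against 0.863% (0.840% to 0.887%) of 591500 interior fragments. In TEPC1165 replicate 2, 559 were detected, or 1.10% (1.01% to 1.19%), against 0.700% (0.679% to 0.722%). The ratio was 1.28 in the first of these libraries and 1.57 in the other, so the replicates of this tumor differed in size but not in direction. In PCT4961 replicate 1, 690 end fragments were detected, or 1.36% (1.26% to 1.46%), against 0.922% (0.898% to 0.947%) in the interior. In PCT4961 replicate 2, 684 were detected, or 1.34% (1.25% to 1.45%), against 0.833% (0.810% to 0.856%). The PCT4961 ratios were 1.47 and 1.61. End and interior intervals did not overlap in any library. They treat each fragment as a separate trial and cover counting error only, so they do not measure the spread between libraries. Reads without molecular identifiers may be copies of one molecule, which bears on read counts rather than on whether a fragment was detected.

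The mean log2 ratio of end over interior detection was 0.56 ± 0.148 (SD, n = 4 libraries), above 0 in 4 of 4. A two-sided exact sign-flip permutation test over libraries gave p = 0.125, the smallest that 4 libraries allow. This test and the SD count the libraries as 4 separate units; with the 2 library numbers as units the smallest possible p of the exact test would be 0.5. The libraries numbered 1 averaged 0.46 and those numbered 2 averaged 0.67. With each window kept in only one of the same-numbered libraries, the log2 ratios were 0.13 and 0.58 in TEPC1165 and 0.67 and 0.57 in PCT4961. All 4 stayed above 0, and TEPC1165 replicate 1 came closest to it.

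**Figure D1:**
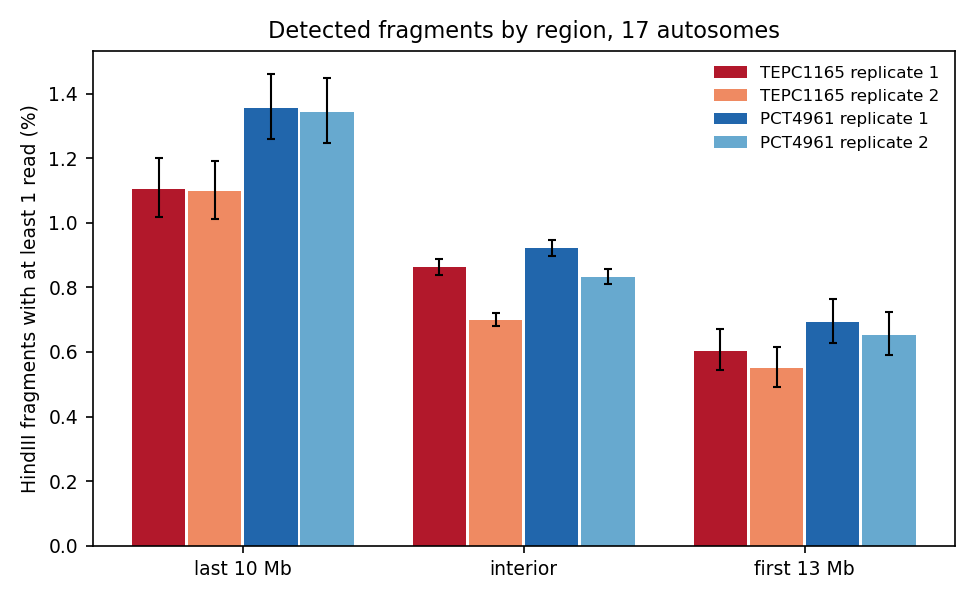
Bars give the percentage of HindIII fragments with at least 1 read in the last 10 Mb, the interior and the first 13 Mb of 17 autosomes, 1 bar per library, with 95% Wilson intervals. In every library the last 10 Mb lie highest (1.10% to 1.36%) and the first 13 Mb lowest.

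The first 13 Mb, nearest the centromere, stood at the other extreme. There 0.603% and 0.550% of fragments were detected in TEPC1165, and 0.694% and 0.653% in PCT4961. Detection at the telomeric ends was 1.83 to 2.06 times that of the first 13 Mb, with a mean log2 ratio of 0.97 (exact sign-flip permutation p = 0.125, the smallest possible). Windows of the first 13 Mb contained 66.6 HindIII fragments in the mean, against 59.9 in end windows. Detection varied with this number, as described below, and the contrast was not weighted for it.

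Summed over the 17 chromosomes, reads told the same direction with a wider spread. The TEPC1165 libraries had 72202 and 74427 reads in end windows, and the PCT4961 libraries 51231 and 59868. They took 9.52% and 13.04% of the reads of the 17 autosomes in TEPC1165, and 12.97% and 12.02% in PCT4961, while they contain 7.28% of the fragments. Per 1000 fragments, the ends had 1419 and 1462 reads in TEPC1165 against 1085 and 786 in the interior. PCT4961 had 1007 and 1176 at the ends against 539 and 681 in the interior. The mean log2 ratio of reads per fragment was 0.74 ± 0.243 (SD, n = 4 libraries), above 0 in 4 of 4 (exact sign-flip permutation p = 0.125). TEPC1165 replicate 1 was the lowest at 0.39, and the other 3 libraries lay between 0.79 and 0.90. With shared windows kept once, the range was 0.35 to 0.94.

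Most of the difference in reads was a difference in how many fragments were met. A detected end fragment held 128 and 133 reads in TEPC1165, while PCT4961 had 74.2 and 87.5. A detected interior fragment held 126 and 112 in TEPC1165 and 58.4 and 81.8 in PCT4961. The end value exceeded the interior value in each library, by little in TEPC1165 replicate 1. Reads were concentrated, with the 5 highest of the 849 end windows holding 11.99% to 14.8% of end reads.

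Raised detection was not limited to the last 10 Mb. In steps of 2 Mb inward from the chromosome end, 1.18%, 1.54%, 1.14%, 1.28% and 0.958% of fragments were detected in the mean of the libraries. The terminal 2 Mb were thus not the highest. The innermost step inside the border, 8 to 10 Mb, had 0.871% and 0.851% in TEPC1165 and 1.05% and 1.06% in PCT4961. The first step outside it, ending 12 Mb from the chromosome end, had 0.773% and 0.745% in TEPC1165 and 0.782% and 0.773% in PCT4961. Further in, mean detection was higher again, with 1.40% between 14 and 16 Mb and 1.30% between 16 and 18 Mb. In 5 Mb bins it ran from 0.742% to 0.889% between 30 and 60 Mb, and reached 1.11% between 60 and 65 Mb. With only the last 5 Mb taken as the end, the log2 detection ratio was 0.45 and 0.83 in TEPC1165 and 0.64 and 0.88 in PCT4961, above the value for the last 10 Mb in every library.

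**Figure D2:**
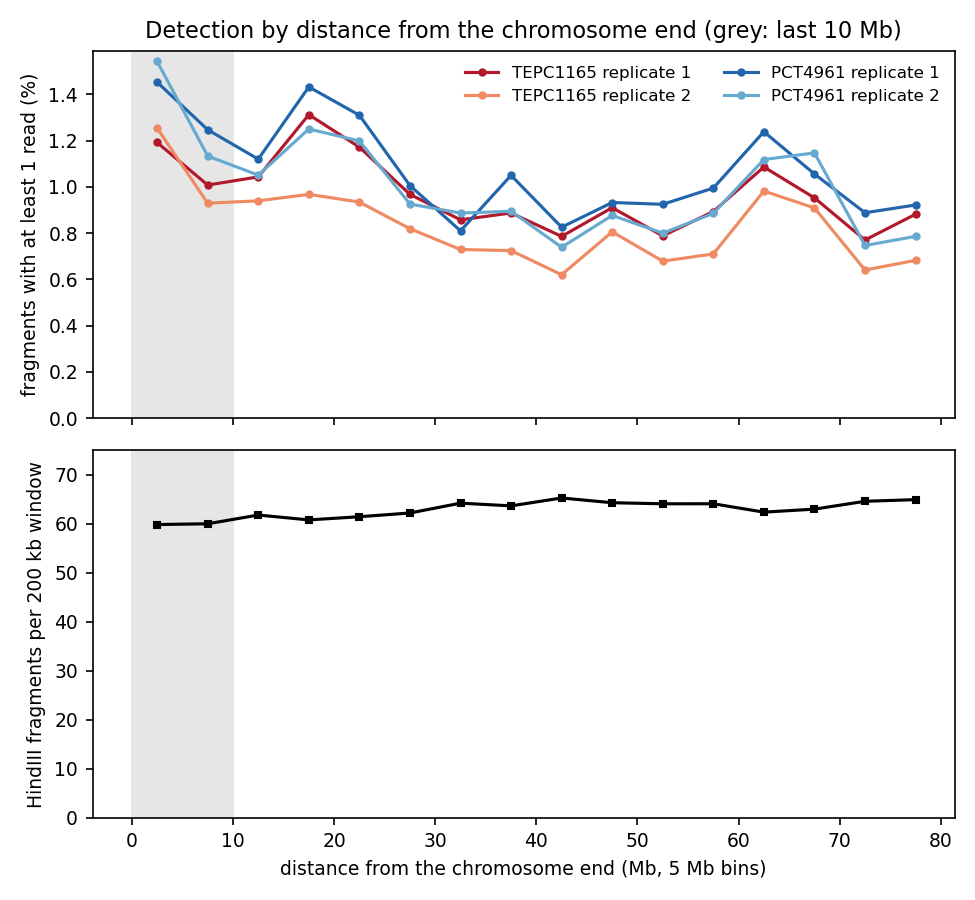
Upper panel: percentage of fragments with at least 1 read against the distance of the window from the chromosome end, in 5 Mb bins, 1 line per library (grey, last 10 Mb). Lower panel: mean number of HindIII fragments per window in the same bins. In each library the first bin exceeds the mid-chromosome bins from 30 to 60 Mb, and a second rise at 15 to 25 Mb is largest in the libraries numbered 1.

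Against the stretch next to them, the ends were barely raised. With the interior limited to 10 to 30 Mb from the chromosome end, the log2 detection ratio was −0.022 and 0.27 in TEPC1165 and 0.16 and 0.29 in PCT4961. The mean was 0.17, and TEPC1165 replicate 1 lay on the other side of 0 from the rest. On this comparison 10 of the 17 chromosomes had the higher mean detection at the end, compared with 16 of 17 against the whole interior. Reads per fragment kept a mean log2 ratio of 0.42 over the same stretch, from 0.085 in TEPC1165 replicate 1 to 0.58 in PCT4961 replicate 1. The comparison stretch itself had mean detection between 0.929% and 1.24% in its 4 bins of 5 Mb.

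End windows also differed from interior ones in the number of HindIII sites, a property of the sequence itself. An end window contained 59.9 ± 11.8 fragments and an interior window 64.2 ± 10.2 (SD over 849 and 9214 windows). Interior windows with fewer, longer fragments had more of their fragments detected. In the interior, mean detection over the libraries was 1.70% in windows of 40 to 49 fragments, 1.02% at 50 to 59, 0.770% at 60 to 69 and 0.671% at 70 to 79. In end windows of the same classes it was 1.94%, 1.55%, 1.07% and 0.870%, in the same falling order. By the mean of the libraries, the ends were higher in these 4 classes, which hold 776 of the 849 members. Every library was higher at the end at 50 to 59 and 60 to 69 fragments. At 40 to 49 fragments the end was lower in TEPC1165 replicate 1 (1.53% against 1.67%) and PCT4961 replicate 1 (1.87% against 1.92%), and at 70 to 79 it was close to the interior in PCT4961 replicate 2 (0.664% against 0.656%). The end mean was lower in the sparsely filled classes of 30 to 39 (33 end windows, 1.63% against 2.14%) and 80 to 89 fragments (33 end windows, 0.436% against 0.588%).

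**Figure D3:**
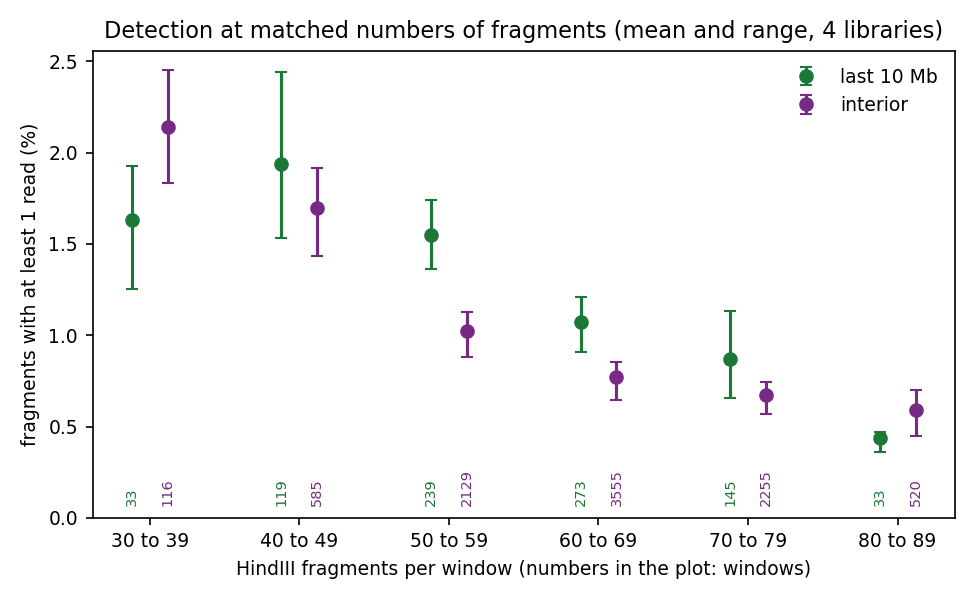
Percentage of fragments with at least 1 read in windows grouped by their number of HindIII fragments, for the last 10 Mb and the interior; points are means and bars the range of the 4 libraries, and the printed numbers are windows. At 50 to 59 fragments every end value (1.36% to 1.74%) exceeds every interior value (0.883% to 1.13%), whereas at 30 to 39 fragments the interior mean is higher.

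With the interior weighted to the fragment numbers of the end windows, the log2 detection ratio was 0.21 and 0.47 in TEPC1165 and 0.38 and 0.50 in PCT4961, with a mean of 0.39 in place of 0.56. When the stretch at 10 to 30 Mb was weighted in the same way, the mean was 0.097 and TEPC1165 replicate 1 stood at −0.088. Gene density, which needs gene positions in mm9, was not analysed here, and its part in the result was not tested.

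Chromosomes differed widely in how far their ends were raised. The detection ratio was above 0 on the log2 scale in all 4 libraries for 14 of the 17 chromosomes. It was above 0 in 14, 17, 16 and 17 chromosomes in TEPC1165 replicates 1 and 2 and PCT4961 replicates 1 and 2. The median over chromosomes of the mean log2 ratio was 0.53. Leaving out any 1 chromosome moved the pooled ratio only between 0.51 and 0.60.

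The end of chromosome 11 was raised most. Of its 2475 end fragments, 51 and 55 were detected in TEPC1165 and 69 and 62 in PCT4961, or 2.06%, 2.22%, 2.79% and 2.51%. The interior of chromosome 11 had 1.14%, 0.806%, 1.17% and 1.03% in the same order. All end values were above all interior values, and the mean log2 ratio was 1.21 ± 0.259 (SD, n = 4 libraries). Its reads per fragment were also higher at the end in 4 of 4 libraries, with log2 ratios from 1.02 to 1.81. In the order of genes in GRCm38, the last named protein-coding genes of this chromosome include Tbcd, a cofactor that folds tubulin, Fn3k, a kinase that reverses protein glycation, and Metrnl, a secreted factor. They only show which genes neighbour the telomere, since windows of 200 kb do not resolve genes.

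Chromosomes 4 and 8 followed. Chromosome 4 had 33 and 38 of 2470 end fragments detected in TEPC1165 and 44 and 54 in PCT4961, with log2 ratios of 0.59, 1.08, 0.90 and 1.39. In reads per fragment TEPC1165 replicate 1 stood apart at −0.28, and a single window held 89.02% of its end reads, whereas the other 3 libraries lay between 1.35 and 2.62. Its last genes include Agrn, which organises the neuromuscular synapse, and Isg15, an interferon-induced ubiquitin-like protein. Chromosome 8 had 22 and 33 of 2558 in TEPC1165 and 28 and 39 in PCT4961, with log2 ratios of 0.55, 1.34, 0.68 and 1.24. Its last genes include Itgb1, an integrin subunit, and Nrp1, a receptor in axon and vessel guidance. On both chromosomes the libraries numbered 2 had the higher ratios in either tumor. On chromosome 8 the reads did not follow the fragments: the log2 ratio of reads per fragment was −0.49 and −0.73 in the libraries numbered 1 and 0.52 and 0.63 in those numbered 2.

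Between these and the lowest chromosomes, 16, 9, 6, 10, 5, 13, 19, 7, 1, 14 and 18 followed in this order, with mean log2 detection ratios from 0.88 down to 0.25. The library ranges of each pair of neighbours in this order overlapped. Chromosomes 5 and 6 were the most even, with ranges of 0.51 to 0.67 and 0.59 to 0.76, whereas chromosome 7 ran from −0.020 to 0.80. Their reads were less even than their fragments: on chromosome 5 the log2 read ratio ran from −1.06 to 0.88 and on chromosome 6 from −0.55 to 1.43.

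At the other end of the order stood chromosomes 17, 2 and 3. Chromosome 17, whose last genes include Fshr, the receptor of follicle-stimulating hormone, had log2 ratios from 0.026 to 0.26. Chromosome 2, which ends near Sox18, a transcription factor of vessel development, and Oprl1, the nociceptin receptor, ranged from −0.25 to 0.29. Chromosome 3, whose last genes include Wls, needed for Wnt secretion, and Rpe65, an enzyme of the visual cycle, had −0.21 and 0.049 in TEPC1165 and −0.16 and 0.15 in PCT4961. For chromosomes 2 and 3 the libraries lay on both sides of 0, so no raised end was detectable there at this depth of 22 to 32 detected end fragments per library.

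**Figure D4:**
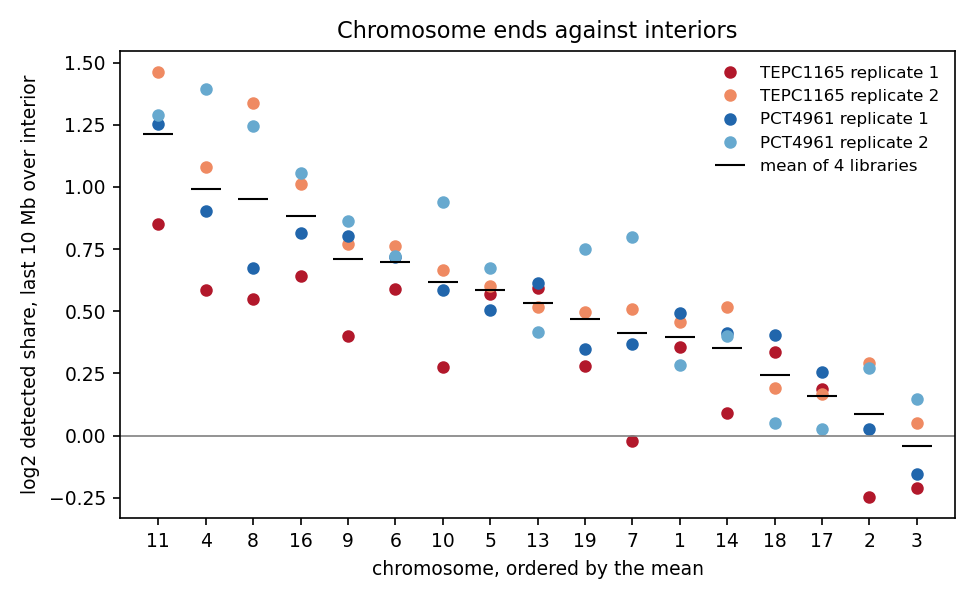
Log2 ratio of the detected share of fragments, last 10 Mb over interior, for 17 autosomes ordered by the mean of 4 libraries (bar); points are libraries. Chromosome 11 is highest, with points from 0.85 to 1.46, and the points of chromosomes 2 and 3 straddle 0.

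The ends raised most were also those with the fewest HindIII fragments per window. Chromosomes 11, 4 and 8 had 49.5, 49.4 and 51.2 fragments per end window, against 61.9, 63.9 and 64.2 in their interiors. Chromosomes 17, 2 and 3 had 65.2, 62.4 and 66.3, against 61.04, 64.6 and 66.4. Across the 17 chromosomes, the log2 ratio of fragments per window and the mean log2 detection ratio had a Pearson r of −0.79 and a Spearman rho of −0.73. This is a description over chromosomes that share the same libraries. Chromosome length showed little relation to the detection ratio, with r = −0.13 over the same 17 chromosomes.

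Chromosome 10 and chromosome 13 were the most even in reads. The log2 ratio of reads per fragment lay between 0.77 and 0.94 in the 4 libraries of chromosome 10 and between 0.69 and 1.12 in those of chromosome 13. Only 5 of the 17 chromosomes had more reads per fragment at the end in 4 of 4 libraries, namely 7, 10, 11, 13 and 19, against 14 for detected fragments. By library, reads per fragment were higher at the end on 8 and 13 chromosomes in TEPC1165 and on 12 and 14 in PCT4961.

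Single end windows rested on very few fragments. Reads were present in 371 and 354 end windows of TEPC1165 and in 413 and 392 of PCT4961, which is 43.7%, 41.7%, 48.6% and 46.2% of them. The interior values were 39.0%, 32.5%, 39.5% and 36.3%. No end window had more than 6 fragments detected in a library. Reads in all 4 libraries were found in 169 end windows (19.9%) against 1173 interior windows (12.7%), and no reads in any library in 256 (30.2%) against 3329 (36.1%). At least 10 reads in all 4 libraries occurred in 49 end windows (5.77%) against 257 interior ones (2.79%). Many of the 169 windows had low read numbers in one of the same-numbered libraries, and whether such reads were carried over between libraries was not tested. With a window set to 0 where it held under 10% of the reads of the same-numbered library, 40 end windows (4.71%) and 320 interior windows (3.47%) had reads in all 4. With same-numbered libraries counted once, 278 end windows (32.7%) and 2239 interior windows (24.3%) had reads under both numbers.

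The end window with most fragments met in every library lay on chromosome 6. Window 6:145800001-146000000 had 5, 5, 6 and 5 of its 59 fragments detected, with 574 and 348 reads in TEPC1165 against 101 and 513 in PCT4961. It is also the start of 5 adjoining windows with reads in all 4 libraries, up to 146800000. The longest such runs in the ends held 6 windows or 1.2 Mb each, at 10:127000001-128200000 and 13:112600001-113800000. With the low shared counts set to 0, only 2 windows of each of these 3 runs had reads in all 4 libraries. Window 10:127800001-128000000, inside the chromosome 10 run, held 778 and 832 reads in the TEPC1165 libraries against 651 and 120 in those of PCT4961. Chromosome 11 had the most end windows with reads in all 4 libraries, 19 of 50, and chromosome 3 the fewest, 2 of 50. Without the low shared counts these became 4 and 0, and the order changed. Chromosome 13 then had the most, 5, and chromosomes 4 and 7 also had 0.

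By the lowest library, the highest end window was 17:87800001-88000000. TEPC1165 had 1858 and 204 reads there, and PCT4961 had 718 and 419. Here the libraries numbered 1 had 6 fragments detected each and those numbered 2 had 2 each. Next came 16:90800001-91000000, where 411 and 696 reads in TEPC1165 faced 135 and 313 in PCT4961 on 2 of 60 fragments in every library. Window 16:95800001-96000000 had 3 to 5 fragments detected, TEPC1165 with 110 and 880 reads and PCT4961 with 1102 and 854. As a share of the reads of the 17 autosomes, the tumors overlapped in the chromosome 17 window and in 16:90800001-91000000, the latter with 0.0542% and 0.122% in TEPC1165 against 0.0342% and 0.0628% in PCT4961. In 16:95800001-96000000, also chosen for its share in PCT4961, the shares were 0.0145% and 0.154% against 0.279% and 0.171%. In the other windows of the 10 highest by this measure, the lowest library had 67 to 120 reads.

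Some of the highest end windows of each tumor differed more between its replicates than between the tumors, and others differed more between the tumors. For TEPC1165 the highest by mean share was 4:149000001-149200000, with 1905 and 967 reads on 1 and 2 fragments and 99 and 55 reads in PCT4961. In the next window of TEPC1165, 7:149400001-149600000, 596 and 1716 reads faced 20 and 69 in PCT4961. These windows were chosen for their share in TEPC1165, so lower counts in PCT4961 are favoured by the choice. The 99 and 55 reads at 4:149000001-149200000 also have about the proportion to the same-numbered TEPC1165 library that high windows had in general. Window 7:144400001-144600000, by contrast, had 2703 reads in TEPC1165 replicate 1 but 9 in replicate 2, with PCT4961 between them at 120 and 559. In PCT4961 the highest was 13:117600001-117800000, with 1053 and 1371 reads on 3 and 1 fragments, while TEPC1165 had 23 and 11 reads. It was chosen in the same way for PCT4961. The second, 18:81400001-81600000, had 1805 reads in PCT4961 replicate 1 and 31 in TEPC1165 replicate 1. Both libraries numbered 2 had 0 reads there, which shows only that no fragment of the window was detected. That pattern followed the library number and not the tumor.

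**Figure D5:**
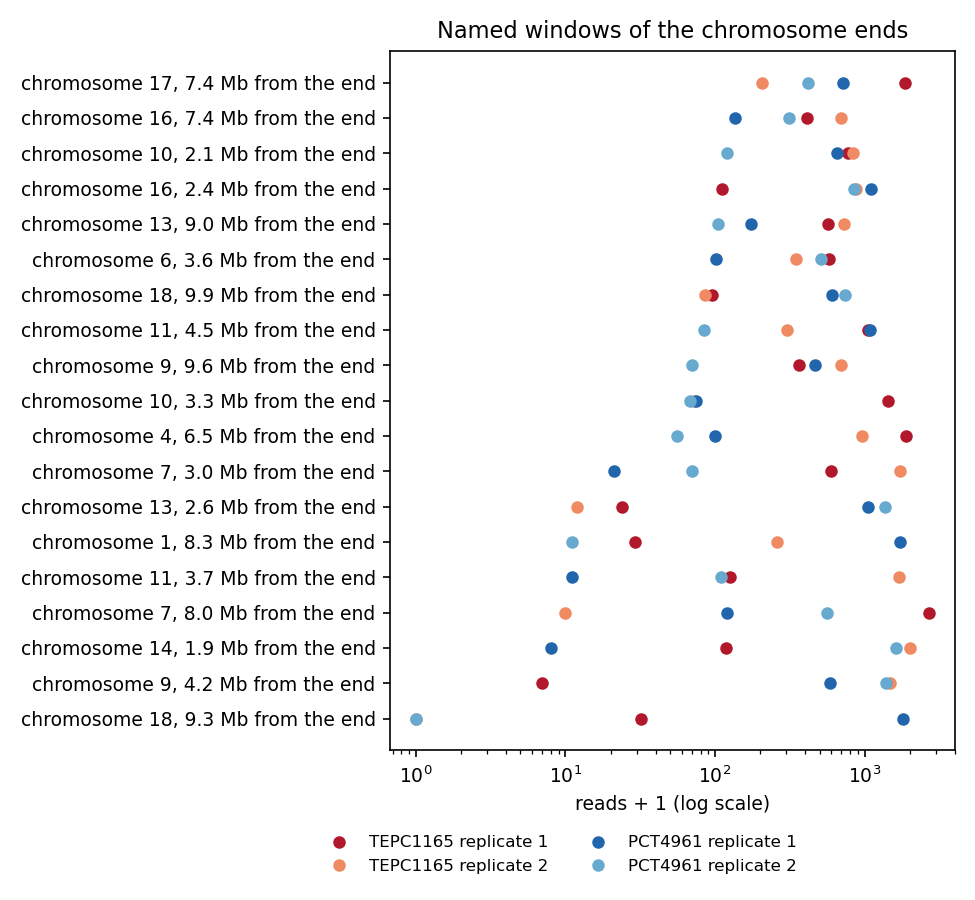
Reads plus 1 on a log scale in each library for 19 named end windows, labelled by chromosome and distance of the window's centre from the chromosome end and ordered by the lowest library. The upper 11 windows hold at least 55 reads in every library, while in each of the lower ones at least 1 library has 20 reads or fewer.

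No end window was called different between the tumors. Of the 849 members, 288 had at least 10 reads in at least 2 libraries and were tested, and 0 were called by edgeR's quasi-likelihood test at an adjusted p under 0.05, against 0.522% of all 3449 windows tested. The interior likewise had 0 of 2326 called. At an unadjusted p under 0.05 there was 1 end window by edgeR (0.347%), against 0.387% of tested interior windows and 1.68% of all tested windows. By DESeq2 there were 19 end windows, where 4.78% of all tested windows passed. After adjustment DESeq2 called 0 end windows and also 0 of all tested windows, so its 0 does not set the ends apart. With edgeR fitted only to windows outside chromosomes 12 and 15, 0 windows were called and 0 had an unadjusted p under 0.05. In the fit to all windows, the lowest adjusted p among end windows was 0.795. For 13:117600001-117800000, the window with the lowest unadjusted p, the log2 fold change of PCT4961 over TEPC1165 was 6.68 (SE 2.75, edgeR adjusted p = 0.795).

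Both PCT4961 libraries were above both TEPC1165 libraries, after scaling, in 50 of the 288 tested end windows, and below them in 17. Over all tested windows the shares were 16.2% above and 8.58% below, so the end windows, with 17.4% and 5.90%, lay near this background. The median log2 fold change of tested end windows was −0.41, against −1.01 over all tested windows and −1.21 over tested interior windows. The groups share the low, uneven counts described above. Over the end windows, log2 reads of the replicates of a tumor correlated at r = 0.15 (TEPC1165) and 0.30 (PCT4961). Same-numbered libraries correlated at 0.61 and 0.65. With 2 libraries per tumor, no difference between tumors was detected at single end windows, and whether greater depth would change this was not tested.

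The difference between the tumors in end over interior detection was within the spread of their libraries. The mean log2 detection ratio was 0.50 ± 0.206 for TEPC1165 (SD, n = 2) and 0.62 ± 0.0948 for PCT4961 (SD, n = 2). They differed by 0.12, with overlapping libraries (exact permutation p = 0.667, two-sided; the smallest possible is 0.333). The log2 read ratio was 0.64 ± 0.359 and 0.85 ± 0.0805, a difference of 0.20 (exact permutation p = 0.667). Without TEPC1165 replicate 1 both differences changed sign, to −0.026 and −0.050.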

How the data were processed

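For every 200 kb window of mm9 the deposited tables hold, per the file headers, a count of HindIII fragments, a count of fragments detected by at least 1 read and a count of reads, none normalized. The aligner is not given in the sources used here, nor is any step that removes PCR duplicates. Members and lists were chosen with earlier results of these data known.

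Detected fragments and reads were summed over end and interior windows and divided by the number of fragments, so that library depth cancels in their ratio. Libraries were compared with exact permutation tests. All windows reaching 10 reads in 2 or more libraries, except the bait window and its 5 neighbours on each side, were fitted with edgeR 4.0.16 (R 4.3.3, TMM, prior count 2, Benjamini-Hochberg adjustment over all 3449 windows tested, threshold 0.05), with DESeq2 1.42.0 as an alternative. P-values measure the spread between libraries, which may be technical. Standard errors were derived from the fold change and the F statistic. Named windows were the 5 with the highest mean share of reads on the 17 autosomes in each tumor and, of those with at least 10 reads in all 4 libraries, the 10 with the highest lowest count; the chromosomes named were the 3 highest and 3 lowest by mean detection ratio. The chromosome 6 window with most fragments, the runs, chromosomes 5, 6, 7, 10 and 13 and the genes at chromosome ends were named after their values were seen. Gene order is from RefSeq, GRCm38. The calculations were also run on simulated data in which each library was drawn independently. Those runs do not cover the sharing of windows between same-numbered libraries. Descriptive values used Python 3.11.15, pandas 2.3.3 and scipy 1.17.1.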

Additional observations from a re-analysis of the deposited data

Results flagged for a closer look

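On chromosome 1 the log2 ratio of reads per fragment, end over interior, was below 0 in both TEPC1165 libraries (−0.82 and −0.41). It was above 0 in both PCT4961 libraries (1.30 and 0.37), a difference of 1.45 that was not tested. Over the 17 chromosomes, both PCT4961 read ratios lay above both of TEPC1165 on 2 and below both on 1. The TEPC1165 libraries had 2007 and 2368 reads at the end of chromosome 1 and the PCT4961 libraries 3886 and 3315, of which 36.4% to 44.7% lay in the highest window of the library. In PCT4961 replicate 1 that window was 1:188800001-189000000, with 1738 reads on 2 fragments and 10 reads in PCT4961 replicate 2. The detected end fragments numbered 36 and 35 in TEPC1165 and 40 and 36 in PCT4961, with a detection ratio above 0 on the log2 scale in 4 of 4 libraries.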

How the results depend on the processing

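The mean log2 detection ratio (0.56) stayed above 0 under every alternative. Of its 32 alternatives, 17 left out 1 chromosome each, which kept it between 0.51 and 0.60. It moved by more than the within-tumor SD of 0.160 in 4 of the 32. It was 0.17 with the interior 10 to 30 Mb from the end and 0.39 with the interior weighted to fragments per window. With both it was 0.097, and for windows with at least 1 read in place of fragments 0.29. The read ratio (0.74) had a within-tumor SD of 0.260. It fell to 0.56 with each chromosome counted once and to 0.57 with the weighted interior, both within that SD. It moved further in 2 of 32, to 0.42 and 0.37 with the interior at 10 to 30 Mb, unweighted and weighted. The count of chromosomes with a raised end (16) moved to 10 with that interior. Leaving out a library gave 0.49 to 0.64 for detection, 0.62 to 0.87 for reads and 16 to 17 chromosomes. The difference between tumors in the detection ratio ran from −0.026 to 0.27, and in the read ratio from −0.050 to 0.46; both turned below 0 without TEPC1165 replicate 1 only. The number of end windows called stayed at 0 under every alternative that kept 2 libraries per tumor. Fits with a library left out are not counted, since the single library left of a tumor took its spread from the other tumor. Over all windows, 0 were also called without chromosomes 12 and 15, with detected fragments in place of reads and with DESeq2. Those runs therefore cannot set the ends apart. The remaining alternatives, including the replicate block, called 11 to 27 of all windows tested. Under the replicate block, 9 end windows had an unadjusted p under 0.05, where 5.97% of all tested windows passed. Same-numbered libraries deviated together (r = 0.55 over 288 end windows), but the labels do not pair them. Leaving out chromosomes, both interior restrictions together and shared windows kept once, and the counts of windows with reads in all 4 libraries without low shared counts, were chosen after the data were seen. Depth, at 21 to 69 detected fragments per chromosome end, limits all values for single chromosomes.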
